A study of Panonychus citri with 4 samples.

Results

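The ends of the life cycle of the citrus red mite (Panonychus citri), a spider mite that feeds on plants, were compared through 2 of the 4 small RNA libraries of the series, that of the adult and that of the embryo. Each library came from whole bodies that were pooled, more than 3000 embryos in the first and 1000 adults in the second, and the labels give neither a treatment, a strain nor the sex of the adults. The larva and nymph libraries enter here only as levels between these ends. Since each stage is 1 library, neither a replicate check nor a p-value can be given and the values describe these libraries. Every interval is a 95% Clopper-Pearson interval that covers counting error only. Amplified reads without molecular identifiers are not independent molecules.

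The compared units were known miRNAs. The embryo file lists 262 names and the adult file 270, of which 141 are in both and 391 in either. Names sharing a family number were joined to the leading name of a sequence group when their whole ungapped overlap with it matched exactly. This overlap had to span 17 or more bases, and the group is called by its leading name. This gave 282 groups in either library, 154 of them in both, out of 366 over the 4 libraries. The listed miRNA reads came to 248256 in the embryo and 438409 in the adult, which is 4.17% and 7.41% of library totals of 5957910 and 5918115 reads. Levels are given as reads per 1000000 listed miRNA reads, called listed RPM, and as reads per 1000000 of the library total, called library RPM. Every adult over embryo ratio is 1.78 times larger on the library scale. Groups with 30 or more reads, adult and embryo summed, were tested, and a group was called higher or lower when the interval of the ratio lay wholly beyond 2-fold. Of the 282 groups 72 were tested, and the other 210 held 1039 reads in all. A missing row does not show absence, since 3 reads correspond to 12.1 listed RPM in the embryo and 6.84 in the adult.

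miRNAs are RNAs of about the lengths sampled here that guide Argonaute proteins to messenger RNAs, mostly through the seed, bases 2 to 8 from the 5′ end. miRNAs with the same seed can share targets, and many are restricted to a tissue such as muscle or neurons. In whole-body RNA, fewer cells of a type and less RNA per cell cannot be told apart.

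The sequences of the groups on which the comparison turns are shown first, as the files list them (with T for U), 5′ to 3′, with the seed in capitals. The groups with the largest excess in the embryo were these, in order of fold.
miR-92-3p: tATTGCACtcgtcccggcct
miR-315: tTTTGATTgttgctcagaaggcg
miR-92f-3p: tATTGCACtagtcccggcct
miR-279-3p: tGACTAGAtccacattcatcca
The Hox-cluster pair with an excess in the embryo on the listed scale came next.
miR-993-5p: tACCCTGTagacccgggctttt
miR-10-3p: gAATTCGGctctagagaggttt
The groups with the largest excess in the adult were these.
miR-34-5p: tGGCAGTGtggttagctggtt
miR-252-5p: cTAAGTAGtagtgccgcag
miR-317: tGAACACAgctggtggtatctca
miR-281-5p: aAGAGAGCttatccgtagacagt
miR-8-3p: tAATACTGtcaggtaaagatgtc
miR-87: gTGAGCAAagtttcaggtgtgt
miR-137-3p: tTATTGCTtgagaatacacgt
miR-133: tTGGTCCCcttcaaccagct
miR-3931: tACTTTGAgtcggtacgaat
miR-252c-5p: cTAAGTACtagcgccgcagga
miR-210-3p: tTGTGCGTgtttcaagcggctg
The abundant groups higher in the adult by smaller folds were these.
miR-1: tGGAATGTaaagaagtatggag
miR-184: tGGACGGAgaactgataagggc
miR-5735-3p: tGGACAACaggataatggcg

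The adult and embryo libraries were led by different miRNAs on a shared base. The 10 leading groups took 95.03% of the embryo and 94.4% of the adult listed reads, and 6 groups stood among the 10 in both: miR-1, miR-10-3p, miR-5735-3p, miR-184, miR-71a-5p and miR-124-3p. The other 4 of the embryo were miR-315, miR-92-3p, miR-279-3p and miR-993-5p, which went from ranks 1, 2, 6 and 8 to ranks 29, 62, 12 and 11 in the adult. Those of the adult were miR-34-5p, miR-317, miR-252-5p and miR-8-3p, at ranks 2, 5, 7 and 10, which had ranks 15, 21, 32 and 28 in the embryo. The exchange was between groups listed in both libraries: groups listed in the embryo alone numbered 58 with at most 10 reads each, and those listed in the adult alone 70 with at most 26.

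**Figure D1:**
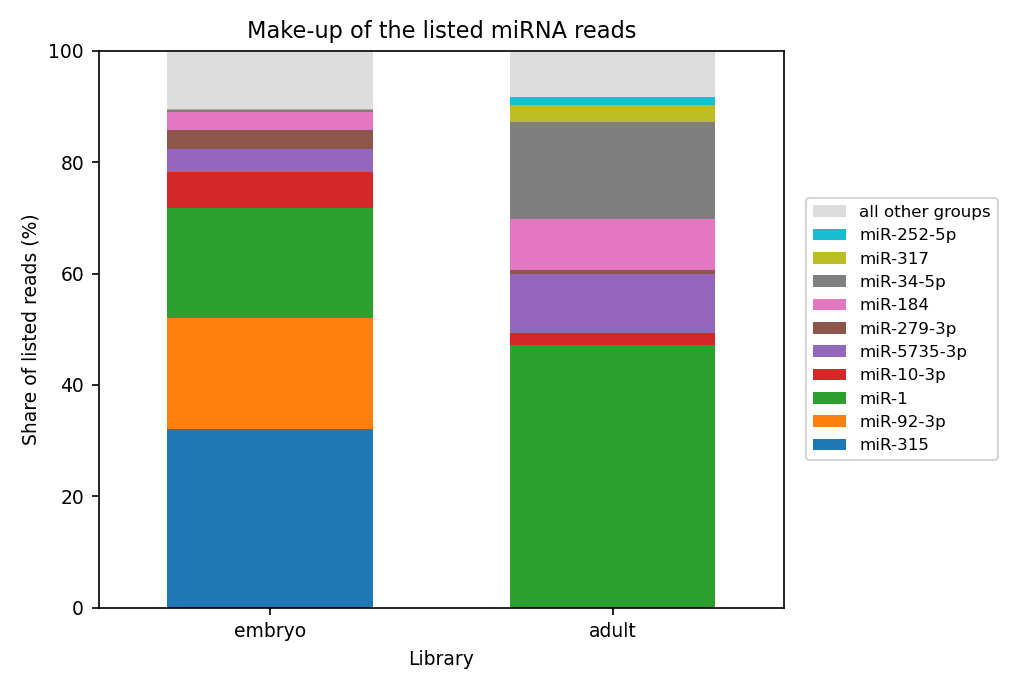
Share of listed miRNA reads (%) taken by 10 sequence groups and by all other groups in the embryo and adult libraries, as stacked bars from 0 to 100%. miR-315 and miR-92-3p fill the lower part of the embryo bar and are too small to see in the adult bar, where miR-1 and miR-34-5p are the largest blocks.

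In listed RPM, 20 of the 72 tested groups were higher in the adult (27.8%) and 7 were lower (9.72%). By library RPM the higher groups numbered 21 (29.2%) and the lower 4 (5.56%), and 20 and 4 were called on both scales. The 20 higher groups took 27.7% of the embryo and 91.6% of the adult listed reads, and the 7 lower groups 65.5% and 3.72%. A further scaling was added after seeing the data, because 3 groups, miR-92-3p, miR-92f-3p and miR-315, together held 52.7% of the embryo and 0.0965% of the adult listed reads. With these 3 left out of both totals every ratio was multiplied by 0.474, and 11 groups were higher (15.3%) and 38 lower (52.8%). Of all calls, the higher ones made up 74.1% in listed RPM, 84.0% with the library totals and 22.4% without the 3 groups. Each of the 6 scalings tried multiplied the listed ratios by a common factor, from 0.474 to 1.78, so they are not independent checks. Under all of them 11 groups were higher and 4 lower. The 11 were miR-34-5p, miR-252-5p, miR-317, miR-281-5p, miR-8-3p, miR-87, miR-137-3p, miR-133, miR-3931, miR-252c-5p and miR-210-3p, and the 4 were miR-92-3p, miR-315, miR-92f-3p and miR-279-3p.

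**Figure D2:**
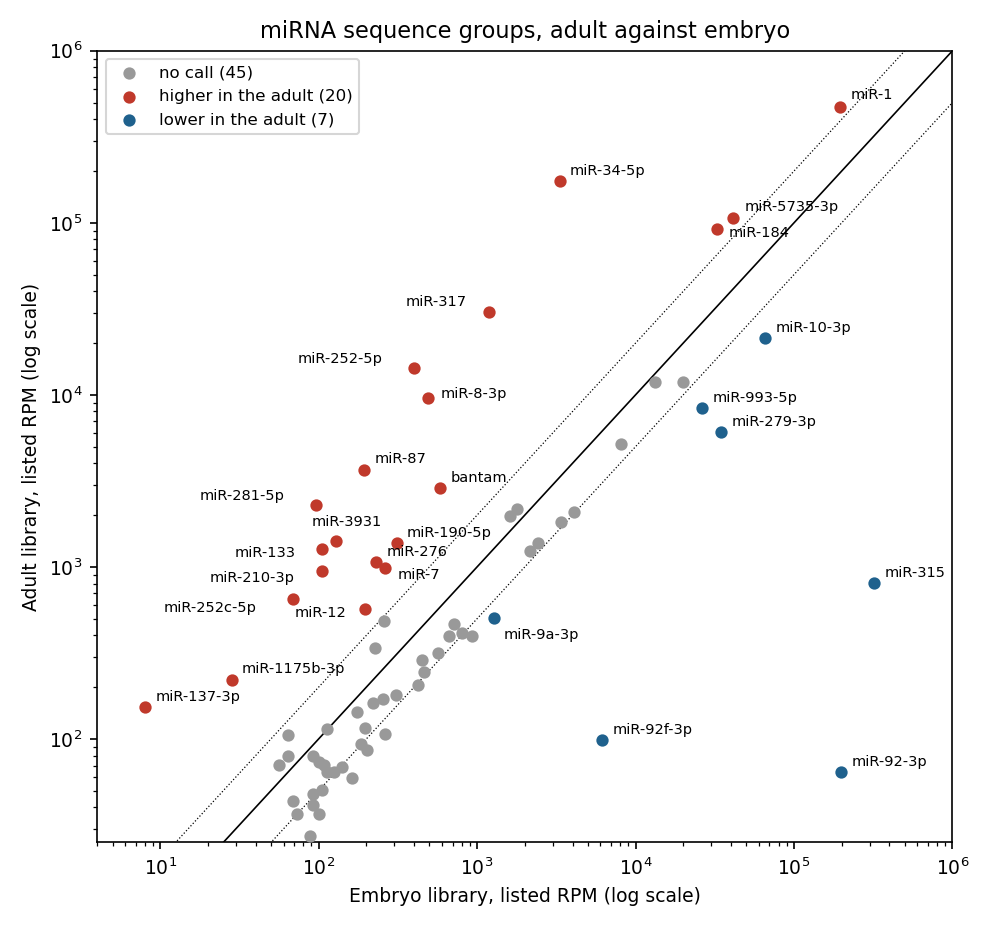
Listed RPM of the 72 tested sequence groups in the embryo (x axis) and adult (y axis) libraries, both on log scales. The solid line marks equal levels and the dotted lines 2-fold. The 20 groups called higher lie above the upper dotted line, with miR-34-5p and miR-317 far from it, and miR-315 and miR-92-3p lie far below the lower one.

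Among the groups lower in the adult, the miR-92 family stood out by size. miR-92, whose relatives act in neuroblast self-renewal in Drosophila, had 49458 embryo reads and 28 adult reads in the group miR-92-3p, or 199222 and 63.9 listed RPM. It was 3119-fold lower in the adult (2158 to 4695) in listed RPM and 1755-fold lower with the library totals. The group miR-92f-3p differs from it by 1 base, C10A, counted from the 5′ end of miR-92-3p, which is outside the seed. It had 1533 embryo and 43 adult reads, and was 63.0-fold lower (46.5 to 87.4). So the fold of miR-92-3p was the larger, the intervals of these groups do not overlap, and miR-92f-3p, with the fewer embryo reads, had the more adult reads. A further group with the same seed, miR-25, had 28 reads in each library and a ratio of 0.566 (0.323 to 0.992) in listed RPM, with no call. Summed over the 7 groups with the seed ATTGCAC, 50985 embryo reads stood against 105 adult reads, 857-fold lower. The leading group gave 96.9% of the family's reads in the embryo and 41.0% in the adult, where the leader was miR-92f-3p.

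miR-315, an activator of the Wingless pathway in Drosophila, went from 79795 embryo reads to 352 adult reads, 400.3-fold lower (360.5 to 445.8), and 225-fold lower with the library totals. Its 23-base row held nearly all of its reads in both libraries, with 99.97% in the embryo and 99.4% in the adult. miR-279, which represses the formation of CO2-sensing neurons in Drosophila, had 8610 and 2652 reads and was 5.73-fold lower (5.49 to 5.99), and 3.22-fold lower with the library totals. Levels fell short of the embryo's in every later library for miR-315 and miR-92-3p on both scales. For miR-279-3p the library RPM from embryo to adult was 1445, 1584, 2451 and 448, so that the embryo was the highest in listed RPM alone.

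Of the 4 tested Hox-cluster groups, 2 were lower and 0 higher in the adult in listed RPM, where 9.72% of all tested groups were lower, and 0 were called with the library totals. miR-10 lies in the Hox cluster of arthropods and vertebrates, and miR-993 is its arthropod relative. miR-10-3p had 65726 listed RPM in the embryo and 21307 in the adult, 3.08-fold lower (3.01 to 3.16) but 1.74-fold with the library totals. miR-993-5p had 26432 and 8387 listed RPM, 3.15-fold lower (3.03 to 3.28) but 1.77-fold with the library totals. The other 2 tested groups of this list had no call, miR-10-5p with a ratio of 0.409 (0.275 to 0.605) and miR-993a-3p with 1.21 (1.08 to 1.36). miR-10-5p and miR-993-5p share the seed ACCCTGT, and the 4 groups with that seed were 3.14-fold lower together (3.02 to 3.27). Of those reads miR-993-5p gave 99.2% in the embryo and 98.9% in the adult. The seventh lower group, miR-9a-3p, had 315 and 220 reads and was 2.53-fold lower (2.12 to 3.02), with no call on the library scale (1.42-fold). Its embryo reads were all of the row miR-9-3p and its adult reads all of the row miR-9a-3p, which starts 1 base later and so has another seed. By seed the direction was not shared: TAAAGCT had 315 embryo and 0 adult reads, and AAAGCTA, which miR-9-1-3p also carries, had 6 and 223 reads and was called higher in the adult (21.05-fold, 9.52 to 57.96). The miR-9 family limits the number of sensory organ precursors in Drosophila, and its other arm, miR-9-5p, had a ratio of 0.637 (0.490 to 0.829) and no call.

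**Figure D3:**
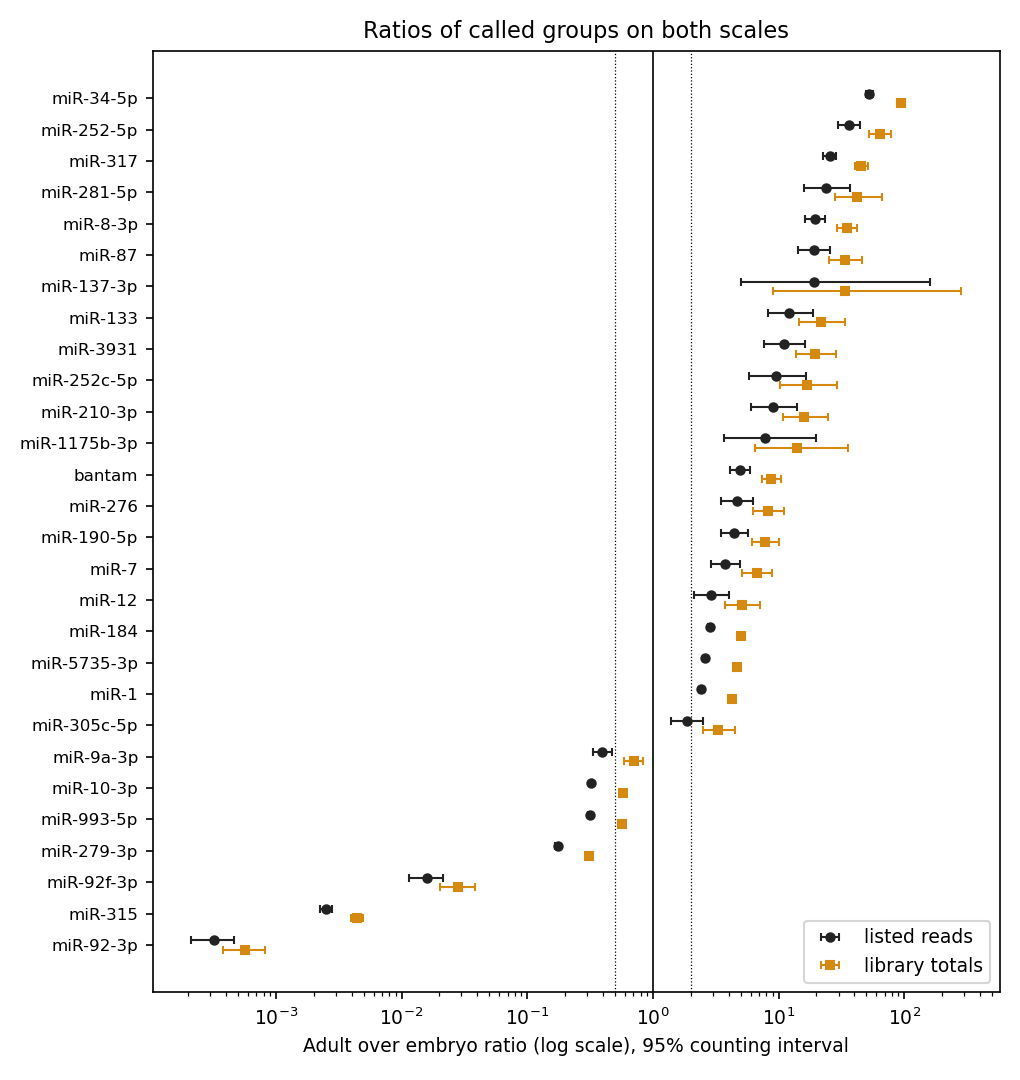
Adult over embryo ratio (log scale) of the 28 sequence groups called on at least 1 scale, with 95% counting intervals, from listed reads (circles) and from library totals (squares). The solid line marks a ratio of 1 and the dotted lines 2-fold. The groups from miR-1 upward lie beyond 2-fold on both scales, and miR-9a-3p, miR-10-3p and miR-993-5p come inside the dotted lines with the library totals.

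Among the groups higher in the adult, miR-34 and miR-317 combined a large fold with a high level. In Drosophila miR-34, miR-277 and miR-317 come from 1 transcript, and miR-34 is linked to ageing and the maintenance of neurons. miR-34-5p had 824 embryo reads and 76683 adult reads, or 3319 and 174912 listed RPM, 52.7-fold higher (49.2 to 56.5), or 93.7-fold by library RPM. It had the largest ratio of the 72 groups. miR-317 had 294 and 13231 reads, 25.5-fold higher (22.7 to 28.7), or 45.3-fold by library RPM. Both tested groups of the list miR-34/miR-277/miR-317 were higher, where 27.8% of all tested groups were. The ratio of the pair was not constant: the miR-34-5p interval lies wholly above that of miR-317. The seed GGCAGTG was carried by 6 groups, and the 5 besides miR-34-5p had no embryo read and 28 adult reads.

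miR-252 and miR-8 were the other groups that entered the adult's 10 leaders. The group miR-252-5p had 99 embryo and 6308 adult reads, 36.1-fold higher (29.6 to 44.5). Its relative miR-252c-5p differs by G8C, which is in the seed, and by T12C, counted from the 5′ end of miR-252-5p. It had 17 and 285 reads, 9.49-fold higher (5.82 to 16.5), below the interval of miR-252-5p. Both were called under all 6 scalings, and their seeds TAAGTAG and TAAGTAC differ in the last base. miR-8-3p, which controls body size through the Drosophila fat body, had 122 and 4208 reads and was 19.5-fold higher (16.3 to 23.6), or 34.7-fold by library RPM. miR-281-5p, an abundant midgut miRNA in Aedes mosquitoes, had 24 and 1008 reads, 23.8-fold higher (15.9 to 37.3). The same row led in both libraries for miR-34-5p, miR-317, miR-252-5p and miR-8-3p.

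Both muscle groups were higher in the adult in listed RPM, where 27.8% of all tested groups were. miR-1, expressed in muscle throughout animals, had 48748 and 206289 reads and was 2.40-fold higher (2.37 to 2.42), 4.26-fold with the library totals and 1.13-fold, with no call, without the 3 embryo groups in the totals. miR-133, which is muscle-specific in vertebrates, had 26 and 560 reads and was 12.2-fold higher (8.24 to 18.8). It rose more than miR-1, as the intervals do not overlap, and was called under all 6 scalings. A like pattern held for 2 other abundant groups: miR-184, which acts in the Drosophila female germline, was 2.84-fold higher (2.77 to 2.91), and miR-5735-3p 2.62-fold (2.56 to 2.68). With the 3 embryo groups out of the totals these stood at 1.34 and 1.24, with no call.

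Of 7 tested groups of the neuron and sense organ list 3 were higher in the adult and 0 lower on both scales, where 27.8% of all tested groups were higher and 9.72% lower in listed RPM. Without the 3 embryo groups in the totals, 2 were higher and 3 lower, beside 15.3% and 52.8% of all tested groups. In listed RPM the 3 higher groups were miR-137-3p, miR-210-3p and miR-7. miR-137-3p had 2 embryo and 67 adult reads (18.97-fold, 5.05 to 159.9), miR-210-3p 26 and 413 (8.99-fold, 6.05 to 13.9) and miR-7 65 and 431 (3.75-fold, 2.89 to 4.95). Without the 3 embryo groups in the totals miR-7 had no call (1.78), and the lower groups were miR-124-3p, miR-263-5p and miR-263b. miR-137 is a neuronal miRNA in mammals and Drosophila, miR-210 responds to hypoxia in mammals, and miR-7 acts in photoreceptor differentiation in Drosophila. miR-124-3p, the most abundant neuronal miRNA of the list, had no call in listed or library RPM. It had 3306 and 5236 reads and a ratio of 0.897 (0.858 to 0.937), or 1.59 (1.53 to 1.67) on the library scale. The sense organ groups miR-263-5p and miR-263b had ratios of 0.514 (0.470 to 0.563) and 0.558 (0.438 to 0.711), and stood at 0.914 and 0.992 with the library totals. miR-87, which promotes dendrite regeneration in Drosophila sensory neurons and was listed under other conserved miRNAs, had 48 and 1610 reads and was 18.99-fold higher (14.3 to 25.9).

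In growth and metabolism 2 of 5 groups, bantam and miR-8-3p, were higher and 0 lower in listed RPM, beside 27.8% and 9.72% of all tested groups. bantam, which promotes growth and blocks cell death in Drosophila, had 145 and 1259 reads and was 4.92-fold higher (4.14 to 5.88). Without the 3 embryo groups in the totals bantam stood at 2.33, with no call. Of the 5 groups 1 was then higher and 1 lower, beside 15.3% and 52.8% of all tested groups. miR-278-3p, linked to Drosophila energy homeostasis, had 55 and 71 reads and a ratio of 0.731 (0.507 to 1.06). miR-305c-5p stood at 1.87 (1.41 to 2.51) and passed the threshold by library RPM alone (3.32, 2.50 to 4.46), while its other arm miR-305-3p had 0.430 (0.351 to 0.526) and no call. Among other conserved miRNAs 7 of 9 groups were higher and 1, miR-315, was lower, beside the same 27.8% and 9.72%. Of these, miR-276 (4.63-fold, 3.51 to 6.21) and miR-190-5p (4.41-fold, 3.48 to 5.67) were named after their values were seen, as were miR-7, miR-12, miR-25, miR-263-5p, miR-263b and miR-9-5p. Without the 3 embryo groups in the totals miR-276 and miR-190-5p stood at 2.19 and 2.09, with no call. Of the 9 other conserved groups 4 were then higher and 1 lower. miR-276 acts in olfactory memory in Drosophila.

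The smaller lists held few tested groups. In miR-71/miR-2/miR-13, whose members include the C. elegans lifespan miRNA miR-71 and the repressors of Drosophila cell death genes of the miR-2 family, 0 of 3 groups were called on either scale, where 27.8% of all tested groups were higher and 9.72% lower in listed RPM. Without the 3 embryo groups in the totals 2 of the 3 were lower, beside 52.8% of all. miR-71a-5p had 4919 and 5193 reads, a ratio of 0.598 (0.575 to 0.622) and 1.06 on the library scale, and miR-71-3p 0.636 and 1.13. miR-2b-3p had 1.23 and 2.18. In germline-linked the only tested group was miR-184, in the miR-309 list miR-279-3p, in the miR-12 cluster miR-12 (2.89-fold higher, 2.12 to 4.01) and in miR-750/miR-1175 miR-1175b-3p (7.85-fold higher, 3.67 to 20.03, from 7 embryo reads). In miR-92/25/310 2 of 3 groups were lower and in miR-9/79/4 1 of 2, beside 9.72% of all tested groups. miR-3931 and miR-5735-3p carry no role here. miR-3931 had 32 and 621 reads and was 11.0-fold higher (7.70 to 16.2).

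The let-7 and vertebrate-type groups had no call in listed or library RPM, but most were lower without the 3 embryo groups in the totals. Under that scaling 7 of the 8 let-7 and 11 of the 15 vertebrate-type groups were lower and 0 higher, beside 52.8% lower among all tested groups. The let-7 groups had library ratios between 0.765 and 1.13, with a median log2 ratio of -0.93 in listed RPM and -0.10 in library RPM. The tested groups of the vertebrate-type list, families annotated in vertebrates, had library ratios between 0.549 and 2.20, 0 calls on both scales and medians of -0.76 and 0.07. Over all 72 groups the medians were -0.64 and 0.19. Summed library RPM from embryo to adult was 388, 361, 562 and 377 for the let-7 complex list and 203, 215, 285 and 215 for the vertebrate-type list. Plant-type names, looked for because the mite feeds on plants, numbered 0 in both libraries. The miRNA reference was not given in the sources used here, so this count cannot show whether plant miRNAs were present. Outside the let-7 and vertebrate-type lists, 20 of 49 groups were higher and 7 lower, with medians of 0.30 in listed and 1.13 in library RPM.

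The larva and nymph libraries show where along the cycle the adult level was passed. All 7 lower groups had their lowest level of the 4 libraries in the adult, on both scales. In listed RPM all 7 were highest in the embryo. By library RPM 3 of the 7 were highest in the embryo, 3 in the nymph and 1, miR-10-3p, in the larva. Of the 20 higher groups, 8 had their highest listed RPM in the adult, 11 in the nymph and 1, miR-184, in the larva. By library RPM 4 were highest in the adult: miR-34-5p, miR-252-5p, miR-8-3p and miR-281-5p. The library RPM of miR-8-3p was 20.5, 173, 349.7 and 711 from embryo to adult, and that of miR-252-5p was 16.6, 269, 637 and 1066. That of miR-34-5p was 138, 6440, 11673 and 12957, so that the nymph was close to the adult by library RPM. Listed reads took 21.2% of the nymph and 7.41% of the adult library total. In listed RPM miR-34-5p stood at 55130 in the nymph and 174912 in the adult, so this closeness depends on the scale. miR-87 and miR-133 instead peaked in the nymph, miR-87 with 8.06, 453, 1708 and 272 library RPM and miR-133 with 4.36, 87.4, 553 and 94.6. The adult over embryo fold of these nymph-high groups is smaller than their range over the cycle.

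**Figure D4:**
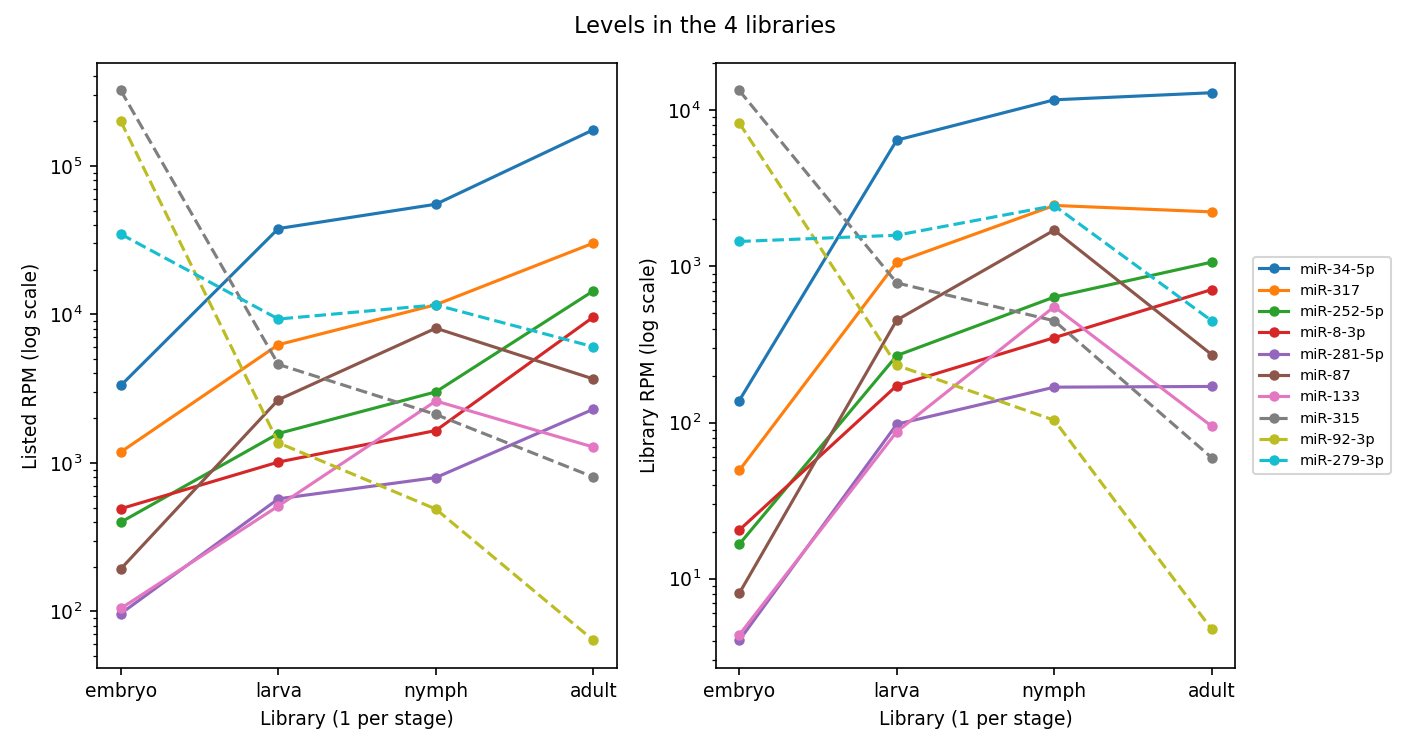
Levels of 10 sequence groups in the 4 libraries, in listed RPM (left) and library RPM (right), both on log scales, with 1 library per stage and no error bars. Solid lines are groups higher and dashed lines groups lower in the adult than in the embryo. miR-34-5p, miR-252-5p, miR-8-3p and miR-281-5p end at their highest level on both scales, miR-87 and miR-133 peak in the nymph, and miR-92-3p and miR-315 descend throughout.

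Length variants were compared within groups, a measure the ratios do not use. Of the 34 groups outside the let-7 and vertebrate-type lists with at least 30 reads in each library, 26 were led by the same row in both. In 7 the leading row was longer in the embryo and in 1 longer in the adult. Each of these leading embryo rows had no adult row, so a difference in length cannot be told apart from one in listing. The read-weighted mean length was shorter in the adult in 15 of the 22 groups with more than 1 listed name and longer in 6. Missing rows enter these means too. Some differences, adult minus embryo, were small, such as -0.017 bases in bantam and 0.0065 in miR-92f-3p. Examples of a leading row that differed between the libraries were these, embryo before adult.
miR-71: tGAAAGACatgggtagtgagat
miR-71a-5p: tGAAAGACatgggtagtgaga
miR-2b: tATCACAGccagctttgatga
miR-2b-3p: tATCACAGccagctttgatg
miR-305-5p: tTTGTACTtcatcaggtgctctg
miR-305c-5p: tTTGTACTtcatcaggtgctc
miR-9-3p: aTAAAGCTatttaaccaaatttg
miR-9a-3p: tAAAGCTAtttaaccaaattt
In the embryo 3756 reads of miR-71 stood beside 1161 of miR-71a-5p, and in the adult 5192 reads of miR-71a-5p with no row for miR-71. Whether a missing row means missing reads is not stated in the sources used here.

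Shorter variants took a larger share of some groups in the adult. The 22-base row of miR-1 held 88.3% of the group in the embryo (88.0 to 88.6) and 82.7% in the adult (82.6 to 82.9), while the 20-base row miR-1b went from 9.17% to 12.7% and the 19-base row miR-1a-3p from 2.54% to 4.54%. In miR-184 the 20-base row miR-184a-3p went from 2.61% (2.27 to 2.98) to 9.98% (9.69 to 10.3), and the 21-base row miR-184-3p, 5.34% of the embryo reads, had no adult row. In miR-34-5p the 20-base row miR-34 held 19.2% (16.5 to 22.03) and 21.3% (21.04 to 21.6), intervals that overlap. With rows listed in both libraries alone, 17 of the 20 higher groups stayed higher and 3 had no such row (miR-137-3p, miR-252c-5p and miR-1175b-3p), and 6 of the 7 lower groups stayed lower, miR-9a-3p having none. On these rows miR-71a-5p (2.53, 2.37 to 2.70) and miR-2b-3p (3.86, 3.20 to 4.68) were called higher, and miR-12 stood at 8.33.

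The make-up of the libraries by length followed the leading miRNAs. Sequences of 23 bases took 33.1% of embryo and 4.53% of adult reads, and miR-315 gave 97.1% of those in the embryo. Sequences of 21 bases took 1.85% and 15.9%, and miR-34-5p gave 86.5% of those in the adult. Without the miR-1 group the 22-base share was 25.2% in the embryo and 27.1% in the adult, against 37.6% and 53.3% with it. A 5′ T was carried by 92.5% of embryo and 95.1% of adult reads, and by 58.0% and 59.3% of listed names.

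**Figure D5:**
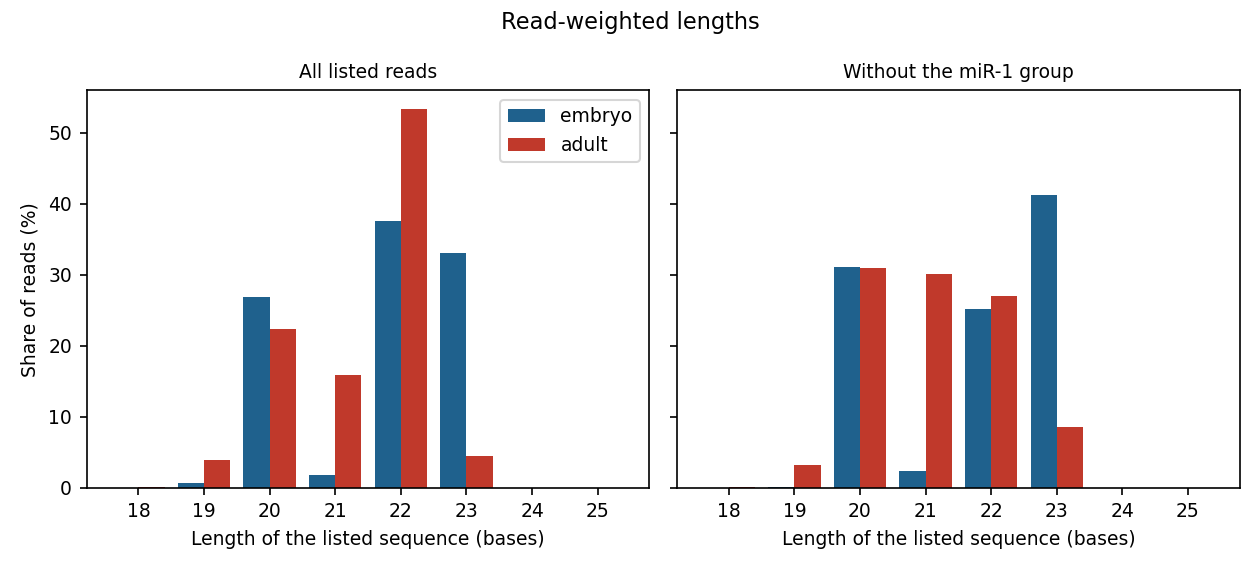
Share of reads (%) by length of the listed sequence in the embryo and adult libraries, over all listed reads (left) and without the miR-1 group (right). The 23-base bar is tall in the embryo and low in the adult, and the 21-base bar is the reverse.

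The seeds of the other called groups were mostly carried by 1 group. Summed by seed, 70 families were tested, of which 22 were higher (31.4%) and 9 lower (12.9%) in listed RPM. By library RPM the higher families numbered 23 (32.9%) and the lower 7 (10%). A start that shifts by 1 base moves reads between seeds: in miR-278-3p the seed CGGTGGG had 55 embryo and 2 adult reads, and the seed TCGGTGG 0 and 69. Of the called families, 14 joined at least 2 groups, 11 higher and 3 lower. The seed ATTGCAC of miR-92 was the only one of the 14 with reads in both libraries whose leading group gave less than 97% of its reads in a library.

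The balance of the arms of a precursor differed most for miR-305, a miRNA of intestinal stem cells in Drosophila. The 5p arm held 21.8% of the reads of both arms in the embryo (17.2 to 27.0, 64 of 293 reads) and 54.8% in the adult (49.7 to 59.9, 211 of 385), with 44.1% in the larva and 58.6% in the nymph. It was the only precursor with at least 30 reads in each library whose leading arm differed, though the adult interval takes in 50%, and the 5p row had 23 bases in the embryo and 21 in the adult. For miR-993 the 5p share went from 93.6% (93.1 to 94.2) to 79.5% (78.3 to 80.6). For miR-7 it went from 69.9% (59.5 to 78.97) to 89.6% (86.5 to 92.2), with the same leading row. By contrast miR-71 held 70.9% (69.8 to 72.0) and 69.6% (68.5 to 70.6), intervals that overlap, and miR-10 0.397% and 0.501%.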

How the data were processed

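Per the labels' protocols, RNAs of 18 to 30 bases were cut from a 15% gel, ligated to adapters, amplified and sequenced, 1 library of pooled animals per stage. Read counts, deposited by the authors, are whole numbers for each known miRNA name. Beside them the authors deposited RPM, reads per 1000000 of a library total, and count divided by RPM gave that total. The matching program, miRNA reference, mismatch rule and genome build were not given in the sources used here. Counts were joined into sequence groups and compared by an exact conditional binomial (Clopper-Pearson) 95% interval of the ratio. The software was Python 3.11.15, scipy 1.17.1 and, for TMM factors, edgeR 4.0.16. The interval was tested on simulated independent counts with known totals, which cannot show the effects of amplification or of the choice of scaling. Depths were 248256 and 438409 listed reads. The alternatives were other scalings, single names, read minimums of 10 and 1, a 4-fold threshold, overlaps of 15 and 20 bases, and chained joining.

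Named groups were the 12 largest and 12 smallest called ratios, the 10 leading groups of each library, tested members of the muscle, Hox-cluster, germline-linked, miR-34/miR-277/miR-317, miR-92, let-7 and miR-71/miR-2/miR-13 lists, bantam, miR-8, miR-278, miR-252 and miR-124, groups whose call differed between the scales, multi-group seed families and precursors whose leading arm differed. The members and lists were chosen with earlier results of these data known. Sequences of let-7 and vertebrate-type names are not printed.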

Additional observations from a re-analysis of the deposited data

How the results depend on the processing

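With 1 library per stage the intervals cover counting error and not the choice of scaling. The count of higher groups, 20, was between 19 and 25 with the library totals, TMM, median-of-ratios and no miR-1 in the totals, on rows listed in both libraries, with lower read minimums and with other joining rules. It was 34 with each name on its own, 12 beyond 4-fold and 11 without miR-92-3p, miR-92f-3p and miR-315 in the totals, a scaling chosen after seeing the data. The count of lower groups, 7, was 4 with the library totals, with median-of-ratios scaling, without miR-1 in the totals and beyond 4-fold, 17 with each name on its own and 38 without the 3 embryo groups. Without those 3 groups, 14 seed families were higher and 32 lower, against 22 and 9. Of the 45 named ratios, 3 lost their call with the library totals (miR-993-5p, miR-10-3p and miR-9a-3p), 1 gained it and 41 had the same call, though uncalled ratios near 1, such as that of miR-124-3p (0.897, and 1.59 with the library totals), crossed 1. No ratio of a group called in listed RPM changed direction under the other scalings or on rows listed in both libraries. Read by seed or by name, miR-9a-3p did. By name, single rows of groups called higher also went the other way, such as miR-12-5p (32 embryo and 0 adult reads) in miR-12 and miR-184-3p (430 and 0) in miR-184. Groups called under another scaling alone could change direction. miR-305c-5p, higher with the library totals (3.32), stood at 0.884 without the 3 embryo groups, with no call. miR-124-3p was called lower without the 3 embryo groups (0.425). No paired analysis was possible because each stage has 1 library. Folds with under 30 embryo reads, such as miR-137-3p, are limited by depth.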
